A study of Mus musculus with 531 samples.

Results

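A set of 10 genes of the p53 and Bcl2 family pathway was followed through single cells of mouse embryos between implantation and the onset of gastrulation. They were chosen by name, as 10 of the 22084 genes counted, and comprise Trp53, its ubiquitin ligase Mdm2, the effectors Bax and Bak1, the BH3-only genes Bid, Bbc3 (Puma), Pmaip1 (Noxa) and Bcl2l11 (Bim), and the protective genes Bcl2l1 (Bcl-xL) and Mcl1. All 10 were present in the count table and all 10 passed the filter on low counts. The cells came from C57Bl/6Babr embryos with no treatment and no engineered allele named in the labels, and each stage is a single embryonic day. At E4.5 (91 cells of 5 embryos) the trophectoderm had been removed by immunosurgery, at E5.5 (80 cells of 1 embryo) extraembryonic tissue had been separated, and at E6.5 (93 cells of 2 embryos) it had been dissected off by hand. RNA was sequenced by Smart-seq2, which covers whole transcripts, from cells whose DNA went to bisulfite sequencing (not analysed here).

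In the mitochondrial pathway of apoptosis, p53 activates transcription of Mdm2, which marks p53 for degradation, and of Bax, Bbc3 and Pmaip1. BH3-only proteins bind the protective members of the family or activate the effectors, and the effectors permeabilize the outer mitochondrial membrane, which leads through Apaf1 and caspase 9 to the executioner caspases. Cells of the pluripotent epiblast around implantation are known for a low threshold to this form of death. Messenger RNA levels do not report the activity of p53, which is controlled largely at the protein level.

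Cells with at least 50000 reads on genes and 2000 detected genes were kept, 75, 59 and 83 at the 3 stages, with 112008 to 8904445 reads per cell. The median number of detected genes was 6985 in the E4.5 cells, 5242 in the E5.5 cells and 9304 in the E6.5 cells. Cells were classed within each stage by clustering on 9 epiblast, 13 endoderm, 8 trophectoderm and 8 mesoderm markers, which include none of the 10 genes. The E4.5 cells fell into 19 epiblast-like (4, 4, 4, 5 and 2 in embryos 1 to 5) and 56 endoderm-like cells. Of these 56, 5 were epiblast-like under a second clustering method, which called all 19 epiblast-like cells alike. Of the E5.5 cells, 51 were called epiblast-like and 8 endoderm-like. All 8 carried labelled cell numbers that are multiples of 12, and no other kept cell of that embryo did, so the class and this position cannot be told apart. The second method left all 8 unnamed, and 13 of the 51. Those of E6.5 split into 19 epiblast-like (8 and 11 by embryo), 28 endoderm-like (23 and 5) and 24 mesoderm-like cells (all of embryo 2), and 12 stayed unnamed. The second method called 17 of the 19, 17 of the 28 and 23 of the 24 alike, and 9 of the 28 endoderm-like cells were epiblast-like under it. The epiblast-like class at E6.5 held more endoderm marker RNA than at the earlier stages. The 13 endoderm markers summed to a median of 1006 CPM (counts scaled to the total of the cell, 319 to 3679) in epiblast-like cells there, against 1.20 CPM at E5.5 (0 to 118) and 41.8 CPM at E4.5 (0 to 418). Every epiblast-like cell at E6.5 held reads of Ttr and Apoa1, and 8 of the 13 markers were read in at least 50% of them. The mesoderm-like cells held a median of 1423 CPM of these markers (542 to 17490). All of them held reads of Ttr and Apoa1, and 12 of the 13 markers were read in at least 50% of them. The endoderm-like class at E6.5 raised 12 of 13 endoderm markers but also 6 of 8 trophectoderm markers. The part of this RNA in the E6.5 values was not tested. At E4.5 the labels carry one prefix for embryos 1 and 2 and another for embryos 3 to 5, and each later stage carries a prefix of its own. The labels do not say what it stands for, and whatever it marks cannot be told apart from stage.

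Trp53 (ENSMUSG00000059552, chr11:69580359-69591873, GRCm38) and Bax (ENSMUSG00000003873, chr7:45461697-45466898) were the only 2 members above the endoderm-like cells in every E4.5 embryo. The 250 bases before their start sites are shown because, of the 9 members with an entry in the promoter table, these 2 genes and Mdm2 were the only ones with a match to the p53 half-site consensus in this window, in capitals (RefSeq, GRCm38.p6, read 5′ to 3′ on the strand of the gene). The Trp53 window is chr11:69580109-69580358 on the plus strand and the Bax window is chr7:45466899-45467148 on the minus strand.
Trp53: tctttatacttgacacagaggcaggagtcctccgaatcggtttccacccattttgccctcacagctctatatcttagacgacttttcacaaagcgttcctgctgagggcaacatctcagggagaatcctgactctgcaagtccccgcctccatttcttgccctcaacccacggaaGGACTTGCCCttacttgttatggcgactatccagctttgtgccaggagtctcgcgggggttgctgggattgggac
Bax: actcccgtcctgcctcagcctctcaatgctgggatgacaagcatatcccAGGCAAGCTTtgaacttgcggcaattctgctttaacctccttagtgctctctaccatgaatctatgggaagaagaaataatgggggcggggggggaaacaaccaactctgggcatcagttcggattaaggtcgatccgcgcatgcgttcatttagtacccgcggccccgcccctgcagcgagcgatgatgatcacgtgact
A half-site match, searched on both strands (the consensus is its own reverse complement), was found in 3 of 14 windows of the 9 members with an entry and in 7.13% of 32851 promoter windows of the same length. The match is a description of letters. The Trp53 window held 9 CpG and the Bax window 14, with a median of 6 over all windows.

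The other members lie at chr10:117688875-117710758 (Mdm2, ENSMUSG00000020184), chr17:27019810-27029009 (Bak1, ENSMUSG00000057789), chr6:120891930-120916853 (Bid, ENSMUSG00000004446), chr7:16308393-16318205 (Bbc3, ENSMUSG00000002083), chr2:128126038-128162547 (Bcl2l11, ENSMUSG00000027381), chr2:152780668-152831728 (Bcl2l1, ENSMUSG00000007659) and chr3:95658788-95663176 (Mcl1, ENSMUSG00000038612), and Pmaip1 is ENSMUSG00000024521. Coordinates cover the whole gene in GENCODE M21. Bid overlaps Bcl2l13 and Bak1 overlaps Ggnbp1 on the opposite strand, and Bax overlaps Gm45808 on its own strand. Reads in these overlaps cannot be assigned with certainty in libraries that do not keep the strand. A processed pseudogene of Trp53 lies on chromosome 17, and how reads matching both were counted is not given in the sources used here.

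Trp53, the transcription factor at the head of the pathway, was abundant in the epiblast-like cells of E4.5 and low in their endoderm-like neighbors. As the mean of log2(CPM + 1) over the cells of an embryo, it was 7.62, 5.83, 7.28, 6.65 and 5.58 in the epiblast-like cells of embryos 1 to 5. In the endoderm-like cells of the same embryos it was 3.16, 4.25, 3.32, 3.28 and 3.46. The classes did not overlap, beside 5.17% of all genes with every epiblast-like embryo above every endoderm-like one, and the difference within embryos averaged 3.09 ± 1.22 on the log2 scale (SD, n = 5). It was 3.02 in the 2 embryos of one label prefix and 3.15 in the 3 of the other. With reads summed over the cells of a class before the logarithm was taken, the difference was 1.87, and with no filter on cells it was 1.16. All 19 epiblast-like cells held a Trp53 read, and 36 of 56 endoderm-like cells did (64.3%, exact Clopper-Pearson 95% interval 50.4 to 76.6). When every cell was thinned to 50000 reads, these shares were 94.1% and 50.9%.

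Bax, the effector, showed the most regular difference. It was 8.36, 7.85, 7.89, 8.12 and 7.81 in the epiblast-like cells of embryos 1 to 5. In endoderm-like cells it was 6.43, 6.00, 6.72, 6.45 and 6.12. Again no embryo overlapped, and the difference averaged 1.66 ± 0.30 (SD, n = 5), between 1.17 and 1.92 in every embryo. In the opposite direction stood Bcl2l1, which encodes the protective protein Bcl-xL. Its levels were 3.92, 3.16, 2.35, 2.79 and 2.62 in epiblast-like cells and 4.31, 5.11, 5.95, 3.60 and 3.33 in endoderm-like cells. The ranges overlapped across embryos, but Bcl2l1 was lower in the epiblast-like cells of each embryo, by a mean of -1.49 ± 1.32 (SD, n = 5) for epiblast-like minus endoderm-like. This sign did not hold in every embryo when the second clustering method set the classes.

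Over all genes, 10.3% of 11376 genes with at least 1 CPM were above the endoderm-like cells in all 5 embryos, and 16% were below in all 5. Among the 10 members, 2 were above (Trp53 and Bax) and 1 was below (Bcl2l1), which is within about 1 gene of these shares. The median difference was 0.58 over the members and -0.13 over all genes. Without embryo 2 the number above was 4, with Bbc3 and Mcl1, beside 14.9% of all genes in those embryos. The number below was 2 without embryo 1 (with Pmaip1, beside 19.6% of all genes) and without embryo 5 (with Mdm2, beside 20.1%). When the cell filter was dropped, 0 members were above in every embryo, beside 1.84% of all genes, and 2 were below, beside 24.6%. The mean differences were then 1.16 for Trp53, -0.54 for Bax and -1.40 for Mcl1, beside a median of -0.99 over all genes. The classes were made from the cells themselves, and no test was run between them.

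**Figure D1:**
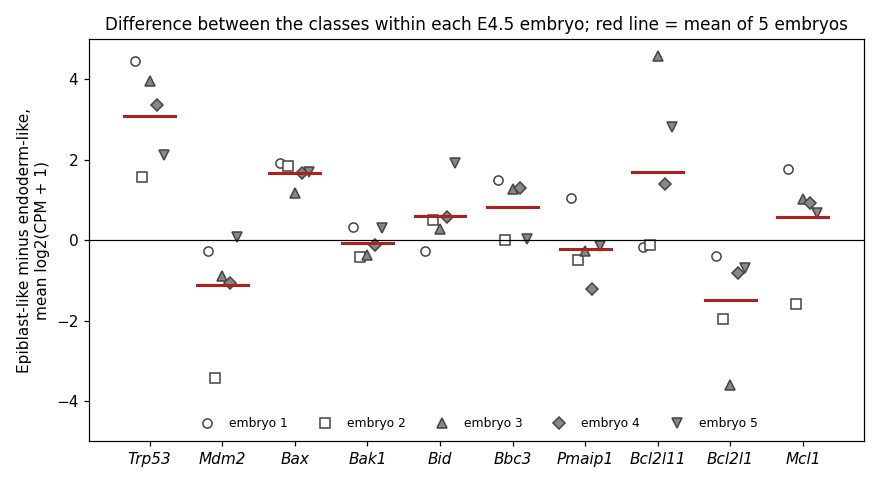
Difference between epiblast-like and endoderm-like cells within each E4.5 embryo (y axis, mean log2(CPM + 1), epiblast-like minus endoderm-like) for the 10 genes (x axis). Symbols are embryos 1 to 5, open for one label prefix and filled for the other, and the red line is their mean. Trp53 and Bax lie above 0 in all 5 embryos and Bcl2l1 below 0 in all 5, while Bcl2l11 is near 0 in embryos 1 and 2 and between 1.39 and 4.58 in embryos 3 to 5.

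The BH3-only genes were low and uneven at E4.5. Bcl2l11, whose protein Bim binds all protective members of the family, was at 1.54, 0.40, 5.80, 3.29 and 3.47 in the epiblast-like cells of embryos 1 to 5. The levels followed the label prefix, since embryos 1 and 2 carry one and averaged 0.97 while embryos 3 to 5 carry the other and averaged 4.18. The difference from endoderm-like cells was -0.15 in the first set and 2.93 in the second. Bbc3, which encodes Puma, was read in 5 of 19 epiblast-like and 5 of 56 endoderm-like cells, 26.3% (exact interval 9.15 to 51.2) and 8.93% (2.96 to 19.6). Pmaip1, which encodes the Mcl1 antagonist Noxa, averaged 2.33 ± 0.66 in epiblast-like and 2.54 ± 0.46 in endoderm-like cells (SD, n = 5). Bid, which links death receptors to mitochondria, averaged 1.31 ± 0.92 and 0.70 ± 0.58. In no E4.5 cell were reads of all 4 BH3-only genes found.

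The remaining members did not separate the classes at E4.5. Bak1, the second effector, was at 0.90 ± 0.58 in epiblast-like and 0.96 ± 0.36 in endoderm-like cells (SD, n = 5). Mdm2 was at 2.78 ± 0.83 and 3.90 ± 0.90, and was lower in the epiblast-like cells of 4 of 5 embryos. Mcl1, the protective gene with a short-lived protein, was at 6.54 ± 0.91 and 5.98 ± 0.64, higher in 4 of 5 embryos, and with no filter on cells its mean difference turned to -1.40. Per kilobase of exon, which allows levels to be compared between genes, the epiblast-like cells of E4.5 held 174 CPM of Bax, 43.1 of Mcl1 and 32.7 of Trp53. The other 7 members were between 0.97 (Bak1) and 5.21 (Pmaip1) CPM per kilobase. Bax transcripts were therefore far more abundant than those of the other effector, Bak1, and this was so in each of the 7 combinations of stage and named class.

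**Figure D2:**
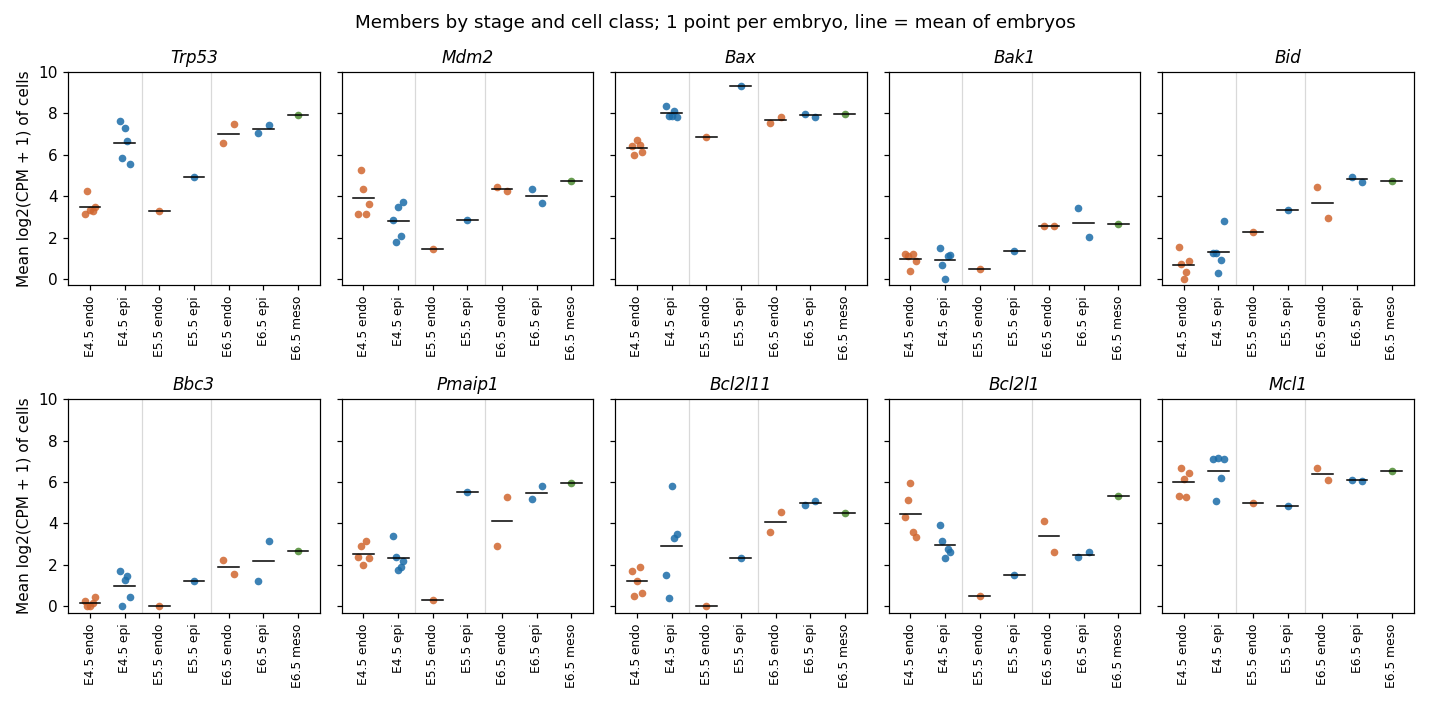
Level of each gene (y axis, mean log2(CPM + 1) over the cells of an embryo) in each stage and cell class (x axis, endo for endoderm-like, epi for epiblast-like, meso for mesoderm-like), with 1 point per embryo and a line at the mean of embryos. Trp53 in E4.5 epiblast-like cells lies between 5.58 and 7.62, above every endoderm-like value of that stage, and Bax is highest in the epiblast-like cells of the E5.5 embryo (9.32).

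In the E5.5 embryo, 9 of 10 members averaged higher in the epiblast-like than in the endoderm-like cells, all but Mcl1, beside 69.4% of 11274 genes with at least 1 CPM. The median gap was 1.30 over the members and 0.46 over these genes. The median number of detected genes was 5599 in the first class and 4224 in the second, and its part in these differences was not tested. The gap was 5.18 for Pmaip1, 2.47 for Bax and 2.35 for Bcl2l11. Bax was read in all 51 of them and averaged 9.32 on the log2(CPM + 1) scale, against 6.85 in the 8 endoderm-like cells. Pmaip1 averaged 5.51 and was read in 44 of 51 epiblast-like cells, against 0.33 and 1 of 8 endoderm-like cells. Bid averaged 3.33 and 2.25, and Trp53 4.92 and 3.27. Bcl2l1 was low in both, at 1.50 and 0.50, and Mcl1 was near equal, at 4.84 and 4.97. Bbc3 and Bcl2l11 had no read in the endoderm-like cells (0 of 8 cells, which allows a share of cells with a read of up to 37.5% by a limit of 3 counts). A single embryo gives no replicate of these differences, and intervals on shares cover counting error only.

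At E6.5 the classes differed little in Trp53 and Bax. In embryos 1 and 2, Trp53 was at 7.03 and 7.44 in epiblast-like cells and at 6.57 and 7.46 in endoderm-like cells. Bax was at 7.99 and 7.85 in the first and at 7.51 and 7.84 in the second. The gap of Trp53 between the classes was thus 0.46 and -0.02 in the E6.5 embryos and at least 1.57 in each E4.5 embryo. In summed reads the gaps of the stages overlapped. Trp53 was then at 147 against 86.3 CPM and at 185 against 187 CPM in the E6.5 embryos. In E4.5 embryo 5, with the smallest gap of that stage, it was at 50.4 against 32.5 CPM. The epiblast-like cells of E6.5 also held endoderm marker RNA, as given above, and its part in these gaps was not tested. Bcl2l1 was high in the mesoderm-like cells, which were all of embryo 2. It was read in all 24 and averaged 5.34, against 2.63 in the 11 epiblast-like and 2.64 in the 5 endoderm-like cells of the same embryo. In embryo 1 the 23 endoderm-like cells averaged 4.14, and the endoderm-like cells of E4.5 reached 5.95. The mesoderm-like cells held endoderm marker RNA too, as given above, and its part in their Bcl2l1 level was not tested. Mdm2 averaged 4.72 in the mesoderm-like cells, 3.70 in the epiblast-like and 4.25 in the endoderm-like cells of embryo 2, and 4.36 and 4.44 in these 2 classes of embryo 1. In embryo 2, Bax (7.95 and 7.85) and Pmaip1 (5.96 and 5.80) were close in mesoderm-like and epiblast-like cells. Pmaip1 was at 5.18 and 5.80 in epiblast-like cells and at 2.93 and 5.29 in endoderm-like cells.

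Ordered by level, Trp53 was at 7.91 in mesoderm-like cells of E6.5, 7.24 ± 0.29 (SD, n = 2) in epiblast-like and 7.02 ± 0.63 (n = 2) in endoderm-like cells of E6.5, 6.59 ± 0.89 (n = 5) in epiblast-like cells of E4.5, 4.92 in those of E5.5, 3.50 ± 0.44 (n = 5) in endoderm-like cells of E4.5 and 3.27 in those of E5.5. At E6.5, the epiblast-like class and the endoderm-like class differed by less than their spread, and the range of the epiblast-like cells of E4.5 reached into both. The mesoderm-like cells came from 1 embryo and have no spread of their own. On this scale the endoderm-like cells of E4.5 and E5.5 differed by less than the spread between E4.5 embryos. In summed reads their order turned, with 56.2 CPM in the E5.5 embryo, above all 5 E4.5 embryos (24.6 to 41.2 CPM).

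Changes with stage were tested in the epiblast-like cells, with reads summed per embryo and the embryo as the unit (edgeR's quasi-likelihood test, Benjamini-Hochberg adjustment over 12824 genes, threshold 0.05). Between E5.5 and E4.5, 0 of 10 members passed, beside 0.304% of all genes. The changes nearest to the threshold were those of Pmaip1, with a log2 fold change of 3.23 ± 0.84 (SE), and of Bax, with 1.40 ± 0.37, at adjusted p of 0.22 and 0.23. With no filter on cells Pmaip1 was at 0.86 ± 1.53. For Bid it was 2.91 ± 1.30, with an adjusted p of 0.47 by the same edgeR test. These 3 members had an unadjusted p under 0.05, as did 9.69% of all genes. DESeq2 called 2 members (Bax and Pmaip1), beside 3.08% of all genes, and limma called 0, beside 0.452%. With all kept cells in place of epiblast-like cells, edgeR called Bax, beside 1.77% of all genes.

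Between E6.5 and E4.5, 0 of 10 members passed, beside 1.94% of all genes. Pmaip1 differed by 2.01 ± 0.72 (SE) on the log2 scale, with an adjusted p of 0.18 from edgeR, and was the 1 member with an unadjusted p under 0.05, beside 17.8% of all genes. With no filter on cells its direction turned, to -0.28 ± 1.27. Bid differed by 2.14 ± 1.10 and Mcl1 by -1.01 ± 0.48. Bax was at -0.06 ± 0.32 and Trp53 at 0.39 ± 0.53. DESeq2 called 0 members, beside 8.2% of all genes. The limma test on mean log2(CPM + 1) called 2 (Bid and Pmaip1), beside 13.8% of all genes, whose median change was 0.56 in that fit, so 2 of 10 is near the background. On that scale, Pmaip1 was at 5.18 and 5.80 in the E6.5 embryos and between 1.73 and 3.42 in those of E4.5, and Bid was at 4.95 and 4.71 against 0.28 to 2.80, with no overlap for either gene. Both E6.5 embryos lay above all E4.5 embryos for 3 of 10 members (Bak1 as well), beside 26.7% of all genes, and below them for 0 members, beside 5.14%, so the count of members is near the background. More genes were detected per cell at E6.5, and thinned to 50000 reads Pmaip1 was found in 84.1% of epiblast-like cells there and in 32.7% at E4.5, and Bid in 72.3% and 17.5%. Thinning evens out reads per cell only, and no such share over all genes is given. The part of the higher number of detected genes in these shares was not tested.

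Between E6.5 and E5.5, 0 of 10 members passed, beside 0.148% of all genes. Bax differed by -1.46 ± 0.44 (SE), with an adjusted p of 0.58 from edgeR, and was the 1 member with an unadjusted p under 0.05, beside 3.56% of all genes. DESeq2 and limma called 0 members, beside 1.32% and 0.0858% of all genes. In summed reads Bax was at 174 CPM per kilobase in epiblast-like cells at E4.5 (mean of 5 embryos, 145 to 216), at 432 in the E5.5 embryo and at 161 at E6.5 (158 and 164). The E5.5 value lay above the range of the 7 other embryos, as it did in summed CPM for 3 of 10 members (with Bid and Pmaip1) and 11.7% of all genes. The lone E5.5 embryo was assumed to vary like the others in these fits.

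**Figure D3:**
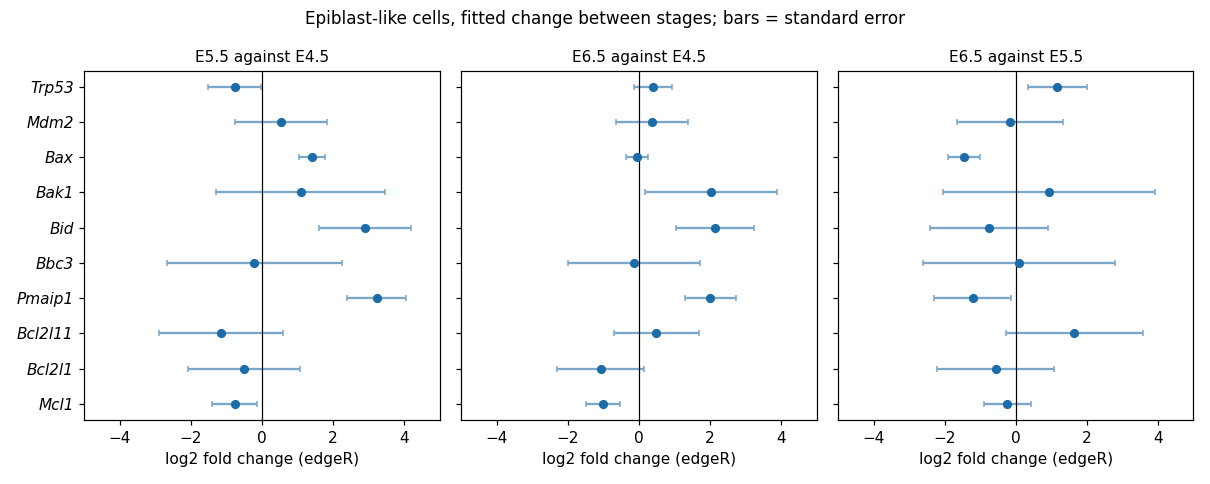
Fitted log2 fold change (x axis) of each gene (y axis) in epiblast-like cells between stages, from edgeR, with bars of 1 standard error. No member passed the threshold in any panel. Bax (1.40) and Pmaip1 (3.23) lie farthest from 0 in units of their error between E5.5 and E4.5.

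The balance of the set was summarized in each cell as the mean log2(CPM + 1) of the 6 pro-apoptotic genes (Bax, Bak1, Bid, Bbc3, Pmaip1 and Bcl2l11) minus that of Bcl2l1 and Mcl1. In epiblast-like cells of E4.5 it was -2.53, -2.03, -1.93, -1.70 and -1.89 in embryos 1 to 5. In endoderm-like cells it was -2.57, -4.02, -4.33, -2.24 and -3.00. The score was thus nearer to the pro-apoptotic side in the epiblast-like cells of each embryo, by 1.21 ± 0.98 (SD, n = 5), and in embryo 1 the gap was near 0. It was 0.67 in the epiblast-like cells of the E5.5 embryo and 0.37 and 0.42 in those of E6.5. All 3 values lay above every E4.5 embryo. The endoderm-like cells were at -1.08 at E5.5 and at -1.51 and -0.23 at E6.5, also above every E4.5 embryo of their class. As means of embryos they went from -3.23 over -1.08 to -0.87, so the shift was not particular to epiblast-like cells. The mesoderm-like cells were at -1.18.

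In epiblast-like cells, both sides of the score lay outside the range of the E4.5 embryos in the E5.5 embryo. At E6.5 only the pro-apoptotic side did. The protective mean was 4.24 and 4.35 in the E6.5 embryos, inside the E4.5 range of 4.12 to 5.51. The pro-apoptotic mean was 4.61 and 4.77 in the E6.5 embryos, above the highest E4.5 embryo (2.98). From E4.5 over E5.5 to E6.5 the pro-apoptotic mean was 2.74, 3.84 and 4.69, and the protective mean was 4.75, 3.17 and 4.29. Cells of a class varied widely, and in the same order of stages 2 of 19, 29 of 51 and 13 of 19 epiblast-like cells were above 0. In the mesoderm-like cells, 0 of 24 were above 0 and the range was -2.02 to -0.49. The score depends on how a gene without a read is counted. With such genes left out of each cell's means, the difference from E4.5 was 0.71 at E5.5 and 0.53 at E6.5, in place of 2.69 and 2.41. No p-value was computed for the score.

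**Figure D4:**
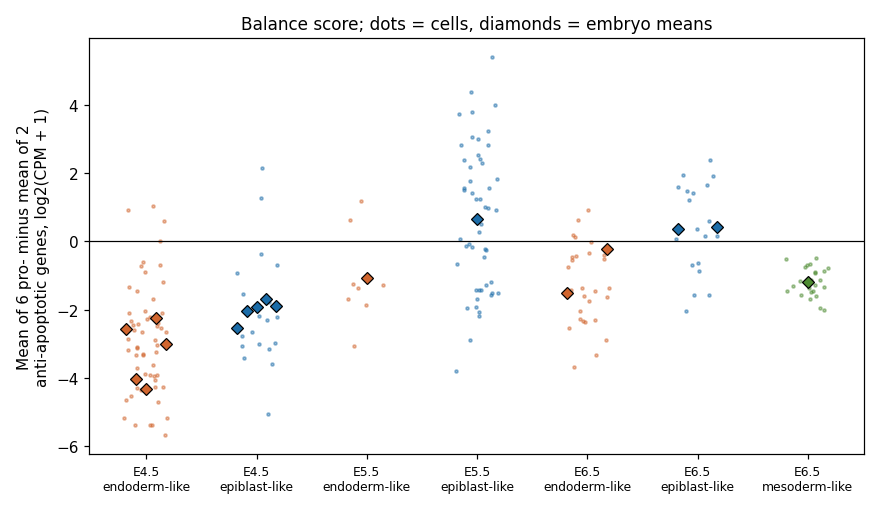
Balance score (y axis, mean log2(CPM + 1) of 6 pro-apoptotic genes minus that of Bcl2l1 and Mcl1) in each stage and class (x axis), with a dot per cell and a diamond per embryo mean. Embryo means of epiblast-like cells lie between -2.53 and -1.70 at E4.5, at 0.67 at E5.5 and at 0.37 and 0.42 at E6.5.

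Within a class and stage, correlations between members from cell to cell ran from -0.54 to 0.76, and genes without a read in many cells limit what they can show. Over the 45 pairs of members, the median absolute Pearson's r across cells was between 0.11 (51 epiblast-like cells of E5.5) and 0.23 (19 epiblast-like cells of E4.5). The highest value, 0.76, joined Pmaip1 and Bcl2l1 in the 19 epiblast-like cells of E4.5, where no embryo had 10 cells. In the 24 mesoderm-like cells of E6.5, r was 0.66 for Trp53 with Pmaip1 and 0.64 for Mdm2 with Bcl2l11. Among the same cells, r of Trp53 was 0.09 with Mdm2, -0.31 with Bax and -0.10 with Bbc3. With the number of detected genes, r was 0.53 for Trp53 and 0.15 for Pmaip1. In the 56 endoderm-like cells of E4.5 it was 0.43 for Mdm2 with Bcl2l1, and 0.34 to 0.58 within the 3 embryos with at least 10 such cells. Both of these genes were also higher in cells with more detected genes (r of 0.56 and 0.54). Cells of an embryo share its label prefix, and these values describe the cells only.

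Over 18 groups of at least 3 cells of 1 embryo and class, and among 7959 genes with a mean of at least 10 CPM, the patterns most like that of Trp53 were those of Trim28 (Pearson's r = 0.90), Chd4 (0.90) and Rbpms2 (0.88). For Bax they were Eef1akmt1 (0.93), Ccs (0.93) and Apex1 (0.93), and for Mdm2 Arfrp1 (0.93), Ears2 (0.92) and Mvb12a (0.90). Bid was closest to Tmem238 (0.93), Samhd1 (0.87) and Acot1 (0.83), and Pmaip1 to Oxct1 (0.88), Psip1 (0.87) and Aqr (0.86). Bcl2l11 was closest to Slc25a51 (0.82), Cdk17 (0.82) and Ccne1 (0.80). The protective genes had looser partners, Dyrk1a (0.79), Gas6 (0.78) and Gcn1l1 (0.77) for Bcl2l1, and Ubxn2a (0.79) and Meis2 (0.78) for Mcl1. Bak1 and Bbc3 were under 10 CPM.

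Other genes of the pathway were taken from lists of 16 regulators of p53, 25 p53 targets, 16 other Bcl2 family genes and 19 genes of caspases and mitochondrial release. At E4.5, 1 of 13 tested regulators was above the endoderm-like cells in all 5 embryos and 2 were below. Of 22 targets, 1 was above and 5 were below, of 8 other family members 2 were above and 1 was below, and of 18 genes of the caspase list 2 were above and 4 were below. Over all genes these shares were 10.3% and 16%, as given above. The median differences were -0.51, -0.38, -0.41 and -0.09, beside -0.13 over all genes. Genes with large differences of 1 sign lay on both sides. Bok, a relative of Bax and Bak1, was higher in epiblast-like cells, at 28.4 against 1.65 CPM in pooled reads, with a mean difference of 2.91 ± 1.71 on the log2(CPM + 1) scale (SD, n = 5). Apaf1, the scaffold of the apoptosome, was lower in epiblast-like cells, at 1.78 against 29.99 CPM (-1.87 ± 0.60). Hipk2, a kinase that phosphorylates p53, was at 9.90 against 57.9 CPM (-2.91 ± 1.29). Dram1, a p53 target of autophagy, had 0 reads in the 19 epiblast-like cells against 84.2 CPM (-5.47 ± 0.63). Set against 3 counts over the group, which covers counting error only, this is at least 425-fold lower.

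Between stages, 1 gene of these lists passed the edgeR test, in a comparison in which 1.94% of all genes passed. Gadd45a, a p53 target of the stress response, was lower in epiblast-like cells at E6.5 than at E4.5, with a log2 fold change of -3.73 ± 0.85 (SE) and an adjusted p of 0.038. It was 1 of 23 tested targets in that comparison, in which 0 targets were higher, and no regulator (15 tested), other family member (11) or gene of the caspase list (18) passed. In the comparisons of E5.5 with E4.5 and of E6.5 with E5.5, 0 genes of the 4 lists passed. In the order of regulators, targets, other family members and caspase list, the median log2 changes were 0.32, 1.54, 1.75 and 0.06 between E5.5 and E4.5, beside 0.03 over all genes. Between E6.5 and E4.5 they were 0.21, 0.93, 1.68 and -0.00088, beside 0.21, and between E6.5 and E5.5 they were -0.26, -1.13, -0.26 and -0.32, beside 0.14. The filter on low counts, set by stage, kept genes counted in as few as 1 embryo of any stage. Of the other family members, 11 passed it and 8 reached 1 CPM at E4.5. Genes read mainly at later stages can thus be in these medians, and their part in them was not tested. Apaf1 is in more than 1 list.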

How the data were processed

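The authors deposited whole-number read counts per gene for 264 embryo cells, without normalization. The submitters' processing notes name Trim Galore, HISAT2 2.1.0, featureCounts and GRCm38, and the annotation counted on is not given in the sources used here. Symbols were matched for 21907 of 22084 identifiers. From the deposited counts, CPM and log2(CPM + 1) were computed per cell. Cells were clustered within a stage by Ward's method on marker genes, and a cluster took the name of the marker list of which most genes were raised (by 1 or more on the log2 scale, in 3 or more genes). At E6.5, 4 clusters were used, chosen after seeing that with 3 none was epiblast-like. Doublets were not called. Counts of epiblast-like cells were summed per embryo and fitted for all 8 embryos with edgeR 4.0.16 (TMM, filterByExpr by stage), with DESeq2 1.42.0 and limma 3.58.1 as alternatives. Leiden clustering (scanpy 1.11.5) gave alternative classes. The fit was tested on simulated data. The 10 genes and all lists were chosen with earlier results of these data known. Named genes are the members, list genes past the threshold (up to 5 per comparison), the 5 list genes with the largest one-signed differences at E4.5 and at least 10 CPM, and 3 most similar genes per member. Of these, 2 are not reported here. Embryos were taken from the labels, which name 5 at E4.5 where the paper names fewer. Labels do not say that embryos came from separate litters, so p-values measure only the spread between these embryos. A mean of log2(CPM + 1) over cells also moves with the share of cells without a read, so its differences can be larger or smaller than those of summed counts.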

Additional observations from a re-analysis of the deposited data

Results flagged for a closer look

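Trp53 in the endoderm-like cells of E4.5 was higher in embryo 2, at 4.25 on the log2(CPM + 1) scale, than in the remaining 4 embryos, whose highest level was 3.46. Embryo 2 gave 4 such cells. The gap exceeded the critical value of Dixon's test (0.71 for 5 embryos). It was 1 of 32 sets of 5 embryos examined, and chance alone passes about 5% of sets. Without this embryo the mean difference of Trp53 between the classes was 3.47.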

How the results depend on the processing

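The number of members past the threshold was 0 in each stage comparison and stayed 0 without any single embryo. It was 1 with all kept cells (beside 1.77% of all genes) and 2 with DESeq2 (3.08%) for E5.5 against E4.5, 2 with limma (13.8%) for E6.5 against E4.5, and, for E6.5 against E5.5, 1 with only the 2 stages in the fit (Bax, 3.61%). In a fit of E4.5 and E6.5 with a replicate block for the number of the embryo, 1 member was called (4.43% of all genes), Bcl2l11, at a log2 change of 4.56, and Bbc3 was at 1.14. E4.5 embryos 3 to 5 have no E6.5 embryo of the same number, so this contrast rests on embryos 1 and 2 of each stage. Bcl2l11 averaged 0.97 in the epiblast-like cells of E4.5 embryos 1 and 2, and 4.18 in those of embryos 3 to 5. Same-numbered embryos did not deviate together (r of -0.015 and 0.0014), so the numbers do not pair the embryos. At E4.5, the members above in every embryo numbered 0 with no cell filter (beside 1.84% of all genes). They numbered 3, with Bid, in summed reads (7.84%) and with Leiden classes (12.7%), and 2 to 4 without single embryos (11.9% to 14.9%). Those below numbered 2 with the stricter filter (18.4%), 2 with no filter (24.6%), 0 with Leiden classes (13.5%), and 1 to 2 without single embryos (19.1% to 20.1%). With no cell filter, differences between the classes changed sign for Bax (-0.54), Mcl1 (-1.40) and Bid (-0.039). The balance difference from E4.5 to E5.5 was 0.71 with genes without a read left out, 1.55 with a pseudocount of 10 and 1.89 with no cell filter. For E6.5 minus E4.5 these settings gave 0.53, 1.24 and 1.65, and it was 0.74 with summed CPM, 1.33 with effectors only and 2.95 with BH3-only genes (added after seeing the data).

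Stage differences of members that missed the threshold changed sign as follows. Between E5.5 and E4.5, Trp53 was at 0.33 with all kept cells. Bbc3 was at 1.35 with all kept cells, 0.25 with Leiden classes, 0.41 with the stricter filter, 0.22 with limma, 0.34 in cells classed alike by both clusterings, and -0.54 to 0.31 without single embryos. Between E6.5 and E4.5, with all kept cells, Mdm2 was at -0.25, Bax at 0.55 and Bbc3 at 1.46. With Leiden classes, Mdm2 was at -0.097 and Bbc3 at 0.21, and with limma Bbc3 was at 1.20. Pmaip1 was at -0.28 with no cell filter. In cells classed alike, Mdm2 was at -0.23 and Bbc3 at 0.042. With 3 clusters at E6.5 and the unnamed one used, Mdm2 was at -0.30, Bcl2l11 at -0.19 and Bcl2l1 at 0.72. Without single embryos, Mdm2 was between -0.33 and 0.77, Bax between -0.17 and 0.0019 and Bbc3 between -1.34 and 0.45. Between E6.5 and E5.5, Bcl2l1 was at 1.29 and Mcl1 at 0.16 with all kept cells, and Bcl2l1 at 0.28 and Bbc3 at -0.043 with Leiden classes. The stricter filter gave 0.043 for Mdm2 and -0.59 for Bbc3, and limma 1.16 for Mdm2, 1.50 for Bid, 0.99 for Bcl2l1 and 1.24 for Mcl1. Bbc3 was at -0.0092 with only the 2 stages, -0.48 with 3 clusters and -0.29 in cells classed alike, and Bcl2l1 and Mcl1 were at 1.25 and 0.31 with 3 clusters. Without single embryos, Bak1 was between -0.46 and 1.60, Mdm2 between -0.85 and 0.24 and Bbc3 between -1.11 and 0.67. The cause of these changes was not tested. The settings with 3 clusters, with cells classed alike and with BH3-only genes were chosen after seeing the data. Standard errors of members reached 2.99 on the log2 scale (Bak1, E6.5 against E5.5).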
